A study of Danio rerio with 27 samples.

Results

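The genes fgf19 (ENSDARG00000098663) and igfbp1b (ENSDARG00000038666) are 2 of the 18336 genes whose RNA levels were measured in sorted liver cells of adult zebrafish, and both encode secreted signals. They were selected by name with their values in all 27 libraries already known, so that their levels and differences are a description and were not tested. Tests were run on other genes of the pathways to which they belong. The fish were adult females in the AB background, and all of them, controls included, carried 1 of 3 reporters. In Tg(kdrl:ras-mCherry) the kdrl promoter marks endothelial cells (ECs), in Tg(fabp10a:dsRed) the fabp10a promoter marks hepatocytes (HEPs), and in Tg(hand2:EGFP) the hand2 promoter marks hepatic stellate cells (HSCs). Thioacetamide (TAA), a hepatotoxin, was given intraperitoneally at 500 mg/kg in 6 doses during 2 weeks, and control fish received a solution without it, which is called sterile water in one place of the methods and saline in another. From each line came 3 libraries of control cells without the reporter, 3 of control cells with it and 3 of cells with it after TAA, or 9 groups in all, and each library was made from 100000 sorted cells. Nothing in the labels ties a library to a fish, so the spread between libraries may in part be technical.

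In mammals, FGF19 (Fgf15 in mice) is a hormone of the lower intestine that is released when bile acids activate the nuclear receptor FXR, and it reaches hepatocytes, where the receptor FGFR4 with its partner KLB lowers bile acid synthesis by CYP7A1. IGFBP1 is a protein secreted by hepatocytes that binds the insulin-like growth factors IGF1 and IGF2 and limits their access to the IGF1 receptor. Its mRNA is known in mammals to rise in fasting through FOXO1, to fall with insulin, and to rise in hypoxia and amino acid shortage through HIF1 and ATF4. The zebrafish has a pair of copies, igfbp1a and igfbp1b.

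The values are rlog levels, which are on the log2 scale, are not scaled to gene length and are shrunk towards the mean of the gene where its counts are low, so that levels are compared here between libraries and never between genes. A difference of 1 stands for a doubling. Depth is not part of the table. Before the results, 3 points about the libraries have to be given. First, the TAA libraries labelled as ECs did not carry the RNA of their label. The mean level of 21 endothelial markers was 0.65 to 1.05 in them, against 7.69 to 8.02 in control ECs and 1.23 to 2.59 in dsRed-positive HEP libraries, and kdrl itself stood at 2.25 ± 0.34 (SD, n = 3) against 12.67 ± 0.15. The mean of 20 hepatocyte markers was 13.50 to 13.88 in them, above the 12.69 to 13.13 of HEP libraries and the 8.69 to 9.82 of control ECs. All 21 endothelial markers were lower and all 20 hepatocyte markers were higher than in control ECs, and the mean of 14 leukocyte markers was 1.31 to 1.65 against 7.68 to 7.75. These libraries are therefore called EC-labelled TAA libraries. A TAA difference or response in ECs below is between them and control ECs, and is not a change shown for endothelial cells. Second, HSC-labelled control libraries had hand2 at 0.68 ± 0.77, against -0.23 ± 0.08 in control and 1.43 ± 0.53 in TAA HEP libraries. In the HSC-labelled controls the mean over 17 stellate markers was 1.495 to 2.345, which overlapped the 1.78 to 2.12 of control HEPs. In HSC-labelled TAA libraries that mean was 3.35 to 3.88. The hepatocyte marker mean was 12.24 to 13.18 in HSC-labelled controls and 12.95 to 13.01 after TAA, overlapping that of HEP libraries. dsRed-negative libraries lay close to it, at 12.66 to 12.69. A difference between HEPs, HSCs and dsRed-negative cells below is thus one between labels. Last, replicate 3 of the EGFP-negative libraries stood apart, with a hepatocyte marker mean of 6.95 and an exocrine pancreas marker mean of 12.75. The plot of marker lists shows the first and the last of these points, and the hepatocyte marker means of the second.

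**Figure D1:**
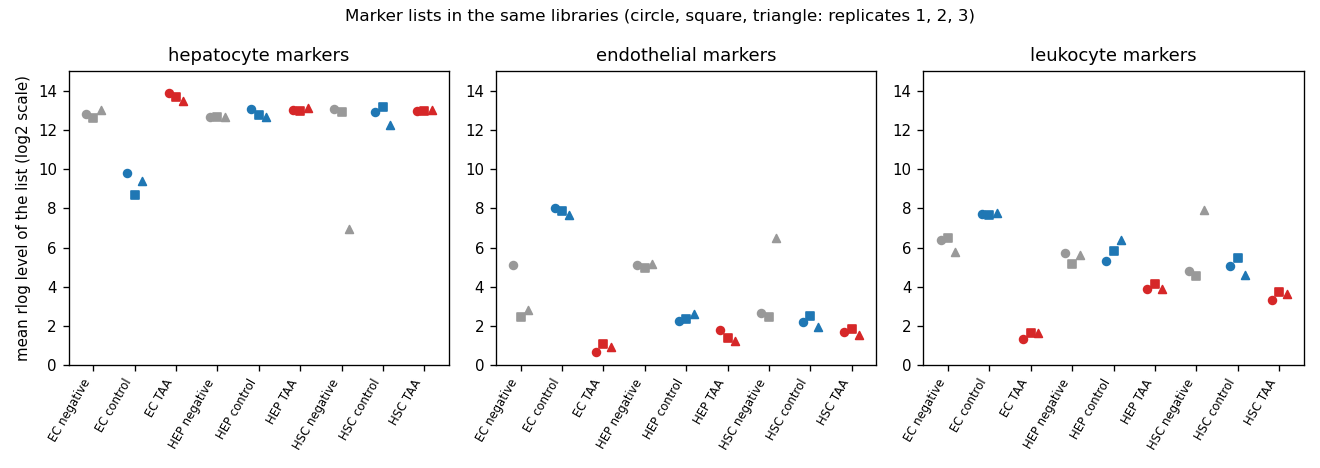
Mean rlog level (log2 scale) of 20 hepatocyte, 21 endothelial and 14 leukocyte markers in each of the 27 libraries, by line and treatment. The EC-labelled TAA libraries lie at 13.50 to 13.88 for hepatocyte markers and at 0.65 to 1.05 for endothelial markers, and replicate 3 of the EGFP-negative libraries lies at 6.95 for hepatocyte markers.

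The gene fgf19 was lowest in control ECs and highest in the EC-labelled TAA libraries. In replicates 1, 2 and 3 its level was 3.54, 0.34 and 0.70 in control ECs, and 9.38, 8.38 and 8.23 in the EC-labelled TAA libraries. Every EC-labelled TAA library lay above all 24 other libraries, as was the case for 0.725% of all genes. The difference of the group means was 7.14, with an SD of 0.63 in the TAA and 1.75 in the control group, and the closest pair of libraries differed by 4.69. Among the 18336 genes this difference was the highest, a rank that describes the values for which the gene was selected. The mCherry-negative control cells of the same line, whose hepatocyte marker mean was 12.62 to 13.01, had fgf19 at 5.80, 5.25 and 4.15, all above the mCherry-positive control cells. In bulk libraries of this kind, a change in the share of a cell type and a change of RNA per cell cannot be told apart.

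In dsRed-positive HEP libraries fgf19 was spread widely among the controls. Its level was 5.84, 4.55 and 1.74 in the control libraries and 6.29, 5.09 and 6.55 in the TAA libraries, so the groups overlapped. The means differed by 1.93, with an SD of 2.097 in the controls and 0.78 after TAA, and without control replicate 3 the difference was 0.78. In HSC-labelled libraries the controls were at 6.50, 5.46 and 2.06, and all 3 TAA libraries were at 7.22. These groups of 3 libraries did not overlap. Where no share of all genes is given beside a lack of overlap, here and below, that share was not counted. In this comparison a lack of overlap was also seen on the gene lists used below. It held for 3 of 13 IGF genes, 7 of 15 bile acid genes and 12 of 20 endoplasmic reticulum genes. The means of fgf19 differed by 2.55, or by 1.24 without control replicate 3. That library had the lowest hepatocyte marker mean of the 6 HSC-labelled ones, 12.24. The SD of fgf19 in the HSC-labelled TAA libraries, 0.000514, was the smallest of all 18336 genes, while its SD of 2.32 in the HSC-labelled controls was exceeded by 0.311% of genes. dsRed-negative cells had fgf19 at 5.19, 3.99 and 3.60, and EGFP-negative cells at 5.89, 5.11 and 0.89. The lowest of these is the library with few hepatocyte transcripts, and without it the mean of the EGFP-negative cells moved from 3.96 to 5.50.

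The gene igfbp1b was likewise lowest in control ECs and highest in the EC-labelled TAA libraries, but HEP libraries held it at a steady level with and without TAA. In control ECs its level was 1.29, 1.35 and 1.23, with an SD of 0.059 that was smaller than that of 93.3% of genes. In the EC-labelled TAA libraries it was 8.47, 7.30 and 7.08, again above all 24 other libraries. The means differed by 6.32, the closest pair of libraries by 5.73, and the difference ranked 3 of 18336. The mCherry-negative cells lay between, at 4.56, 4.23 and 5.44.

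HEP libraries had igfbp1b at 6.53, 6.62 and 5.70 in the controls and at 5.70, 5.84 and 6.25 after TAA. The groups overlapped and the mean after TAA was lower by 0.35, against SDs of 0.51 and 0.29. dsRed-negative cells were at 6.04, 5.91 and 6.10. In HSC-labelled libraries the level was 4.94, 4.57 and 2.73 in the controls and 5.33, 5.82 and 5.72 after TAA. These groups did not overlap, as also held for 4 of 10 other listed IGF-binding proteins and regulators. The means of igfbp1b differed by 1.55, and without control replicate 3, the same library that was low for fgf19, the difference was 0.87. EGFP-negative cells were at 4.74, 4.16 and 4.80, so that the library that stood apart by its markers was the highest of its group for igfbp1b, while it was the lowest for fgf19.

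**Figure D2:**
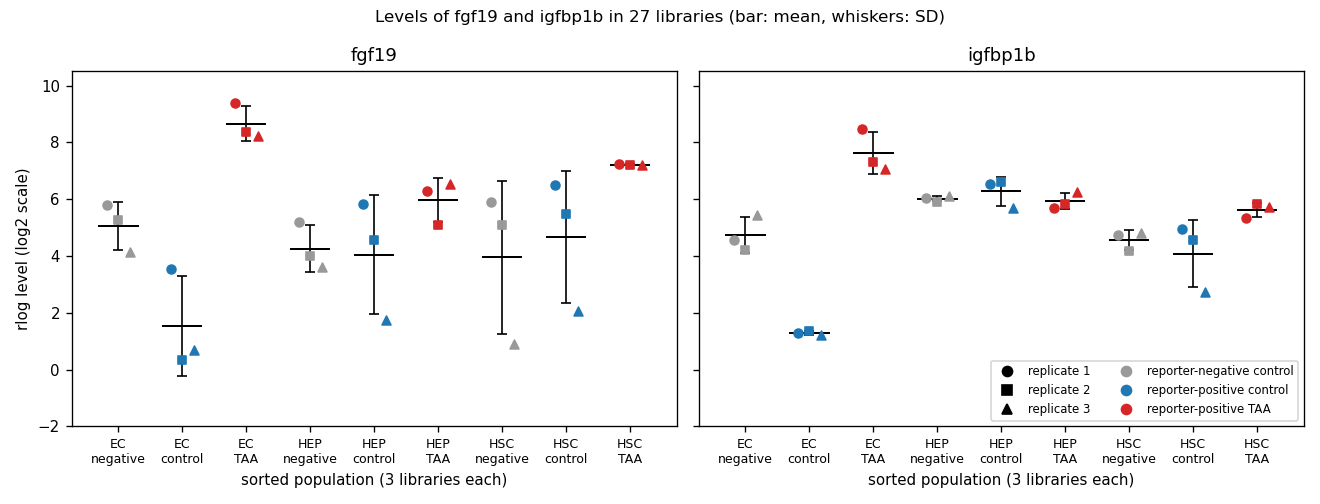
rlog level (log2 scale) of fgf19 and igfbp1b in each of 27 libraries, with the mean (bar) and SD (whiskers) of each group of 3; marker shapes give the replicate number. For both genes the EC-labelled TAA libraries lie above all others (lowest at 8.23 and 7.08), and control ECs have the lowest mean (1.53 and 1.29).

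Ordered by mean, fgf19 fell from the EC-labelled TAA libraries (8.66) through HSC-labelled TAA (7.22) and TAA HEP libraries (5.98) to the reporter-negative and control groups (5.07 to 3.96) and control ECs (1.53). The step from the EC-labelled to the HSC-labelled TAA libraries, 1.44, and that from there to TAA HEPs, 1.25, were between groups that did not overlap. All lower neighbours in this order overlapped, also control HSCs and control HEPs, at 4.68 and 4.05. For igfbp1b the order was EC-labelled TAA (7.62), control HEPs (6.28), dsRed-negative cells (6.02), TAA HEPs (5.93), HSC-labelled TAA (5.62), mCherry-negative cells (4.74), EGFP-negative cells (4.57), control HSCs (4.08) and control ECs (1.29). Only the highest and the lowest group were separated from their neighbour in this order, by 1.34 and 2.79. The 3 dsRed groups thus followed each other for igfbp1b, while for fgf19 the 3 TAA groups held the highest places.

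The EC-labelled TAA libraries were compared with the TAA HEP libraries because both carried hepatocyte RNA. There fgf19 was higher by 2.69 and igfbp1b by 1.69, and neither gene overlapped between these groups. All EC-labelled TAA libraries exceeded all 6 HEP libraries for both genes, as for 3.84% of all genes. The same held for 12 of the 20 hepatocyte markers, whose median difference between these groups was 0.63 (from -0.50 to 2.03), and for 0 of the 21 endothelial markers. Against control ECs, the hepatocyte markers were higher by a median of 4.42, from 2.95 for fabp10a to 6.21 for hp. The differences of fgf19 and igfbp1b, 7.14 and 6.32, lay above this range, but both genes were selected with these values known. For igfbp1b the margin over hp was small beside the SEs of 0.45 for igfbp1b and 0.86 for hp. For fgf19 the margin over hp was likewise smaller than the SE of fgf19, 0.998. The mean of 10 enterocyte markers was 2.00 to 2.66 in the EC-labelled TAA libraries and 2.31 to 2.76 in TAA HEPs. A pair of genes named RBP2 made up most of it, with means of 10.16 and 8.92 in the EC-labelled and 9.28 and 8.66 in the HEP TAA libraries. The highest of the other enterocyte markers was fabp2, at 2.71 and 5.07. By limma, 11 of 14 leukocyte markers (median of the list -3.12) were lower in the EC-labelled than in the HEP TAA libraries. Also lower were 6 of 17 stellate markers (median -1.003) and 2 of 8 biliary markers (median -0.47), beside 2.8% of all genes. Exocrine pancreas and erythrocyte markers had 0 of 13 and 0 of 6 past the threshold (medians 0.82 and 0.058). Of the 10 enterocyte markers 1 was higher, an RBP2 gene, and 1 lower (median 0.12). The part of these markers in the results of both genes was not tested.

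Set beside the hepatocyte marker mean of each library, the genes parted at its lower end in a single library. The 3 control ECs, with hepatocyte means of 8.69 to 9.82, had both genes low, apart from replicate 1 for fgf19 at 3.54. Replicate 3 of the EGFP-negative cells, with the lowest hepatocyte mean of 6.95, had fgf19 at 0.89 but igfbp1b at 4.80. That library also had the exocrine pancreas marker mean of 12.75. Between hepatocyte means of 12.24 and 13.18, where 20 of the 27 libraries lay, fgf19 ranged from 1.74 to 7.22 and igfbp1b from 2.73 to 6.62.

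**Figure D3:**
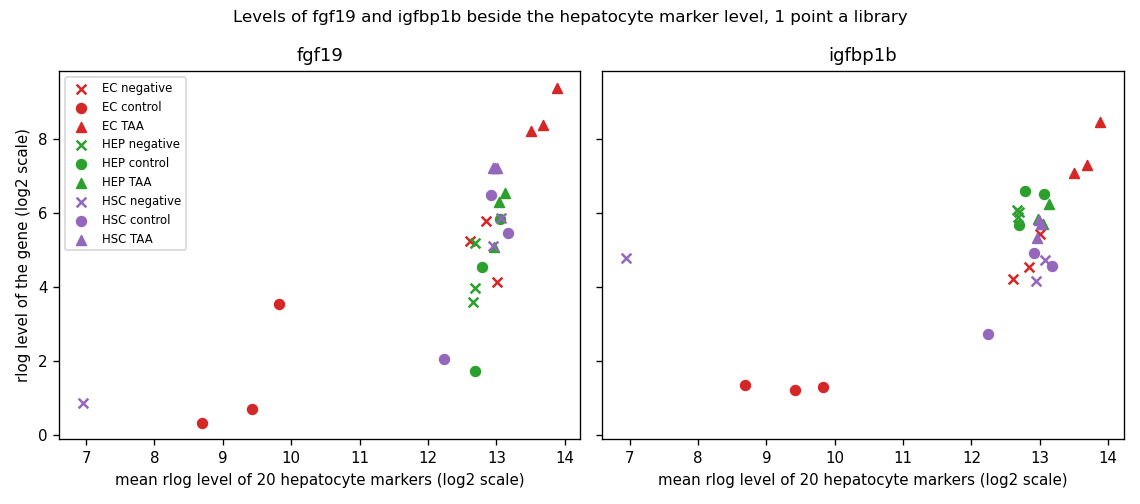
rlog level (log2 scale) of fgf19 and igfbp1b against the mean rlog level of 20 hepatocyte markers, 1 point for each of 27 libraries; colours give the line and shapes the group. The EC-labelled TAA libraries (red triangles) lie at the upper right for both genes, and 20 libraries share a narrow band of hepatocyte means (12.24 to 13.18) within which fgf19 ranges from 1.74 to 7.22.

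Among the controls, fgf19 also followed the replicate number. Replicate 1 had the highest level in all 6 control groups and replicate 3 the lowest in 5 of them, the exception being control ECs, where replicate 2 was lowest. One and the same number was highest in all 6 control groups for 0.578% of genes. In the TAA groups replicate 1 was the highest in 2 of 3. For igfbp1b no number was highest in more than 3 of the 6 control groups. What same-numbered libraries share is not stated, so it is not known whether the 6 groups are separate. Deviations from the group means, taken over all genes, correlated between same-numbered reporter-negative and reporter-positive control libraries at 0.134 to 0.186 in the EC line and 0.114 to 0.157 in the HEP line. In the HSC line the values were 0.138, -0.060 and 0.00078. A value of 0.187 also occurred between EC-labelled TAA and HSC-labelled control libraries, for replicate 3.

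The other genes of the FGF19 pathway were read from lists of FGF receptors, FGF ligands and genes of bile acid synthesis and transport. EC-labelled TAA libraries and control ECs were compared with limma across all genes, which called 19.7% of the 18336 genes higher and 31.5% lower. Of 137 genes on the 9 pathway lists, 49 were higher and 36 lower, which is a share of 57.6% higher among the calls, against 38.5% over all genes. The median of all genes moved by -0.25 in this comparison, and after each library was centred on its median the shares were 71.4% and 60.8%. After quantile normalization they were 56% and 52.9%, so the gap between the lists and all genes depended on the scaling. Of 5 FGF receptors, fgfr4 rose by 2.12 (SE 0.33, adjusted p = 1.86e-05), fgfr2 rose by 1.70 and FGFR1 fell by 1.63. Across the libraries fgfr4, the receptor that binds FGF19 in mammals, stood at 6.87, 6.27 and 6.19 in control ECs, and at 8.71, 8.67 and 8.32 in the EC-labelled TAA libraries. In TAA HEPs it was as high, at 9.69, 9.12 and 8.37, and the difference between these groups of -0.49 did not pass the test (adjusted p = 0.632). The only other FGF ligand found, fgf2, fell by 1.29.

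Of 15 genes for bile acid synthesis and transport, 7 rose and 1 fell in the EC-labelled TAA libraries, beside 19.7% and 31.5% of all genes. The enzyme gene cyp7a1, the main target of FGF19 in mammals, rose by 3.74 (SE 0.48, adjusted p = 1.26e-06), from 5.95, 4.96 and 5.22 in control ECs to 9.08, 9.76 and 8.53. Its level was 8.33, 10.07 and 10.29 in TAA HEPs, and the difference of -0.44 between the EC-labelled and the HEP TAA libraries did not pass (adjusted p = 0.832). nr1h4, which encodes the bile acid receptor FXR, rose by 4.34. ABCB11, the canalicular bile salt pump, rose by 3.64, and slc51a, a subunit of the basolateral bile acid transporter, by 3.72. These 4 genes are known to be expressed in hepatocytes. The hepatocyte markers rose in the same comparison, and their part in these differences was not tested. nr0b2a, a nuclear receptor that mediates repression of bile acid synthesis in mammals, had group means of 0.29 in control ECs and 0.95 in the EC-labelled TAA libraries, a difference of 0.66 that did not pass (adjusted p = 0.404).

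For the IGF axis, the ligand igf1 rose by 3.29 in the EC-labelled TAA libraries and igf2a by 3.88. Of 7 receptor genes 4 fell. Both genes named IGF1R (ENSDARG00000027423 and ENSDARG00000034434) differed by -4.41 and -4.97, the insulin receptor gene INSR (ENSDARG00000011948) by -2.22 and igf2r by -1.95. The other gene named INSR (ENSDARG00000071524) differed by -0.24 and did not pass (adjusted p = 0.257), and the growth hormone receptors ghra and ghrb rose by 1.73 and 0.80. Both genes named IRS2 (ENSDARG00000037099 and ENSDARG00000075282), adaptors of the insulin and IGF1 receptors, rose, by 2.29 and 1.46. Over this list 6 of 13 genes rose and 4 fell, beside 19.7% and 31.5% of all genes.

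Among 10 IGF-binding proteins and regulators other than igfbp1b, 4 rose and 4 fell in the EC-labelled TAA libraries. Over all genes the shares were 19.7% and 31.5%. IGFBP1 (ENSDARG00000099351), which the name table gives without a copy letter, was at 9.65, 8.998 and 8.98 in control ECs and at 11.70, 11.34 and 10.61 after TAA, a rise of 2.01 (SE 0.31, adjusted p = 1.35e-05). Unlike igfbp1b it did not exceed the HEP libraries, where it was at 10.77, 11.02 and 11.65 after TAA. A pair of IGFBP2 genes (ENSDARG00000031422 and ENSDARG00000052470), of hepatic binding proteins, rose by 3.42 and 3.80. igfals, the partner of IGF and its binding protein in the circulating complex, rose by 4.64. igfbp7 fell by 8.31 and igfbp6b fell by 6.996. IGFBP5 fell by 2.56 and igfbp3 fell by 1.80. In the same comparison all 21 endothelial markers (median -7.36) and 13 of 14 leukocyte markers (median -7.03) fell, while the hepatocyte markers rose. The part of these markers in the differences of the IGF genes, and of the stress, fasting and hypoxia genes below, was not tested. The plot of TAA differences shows the genes of this list named here, apart from igfbp3, beside the 2 secreted signals.

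**Figure D4:**
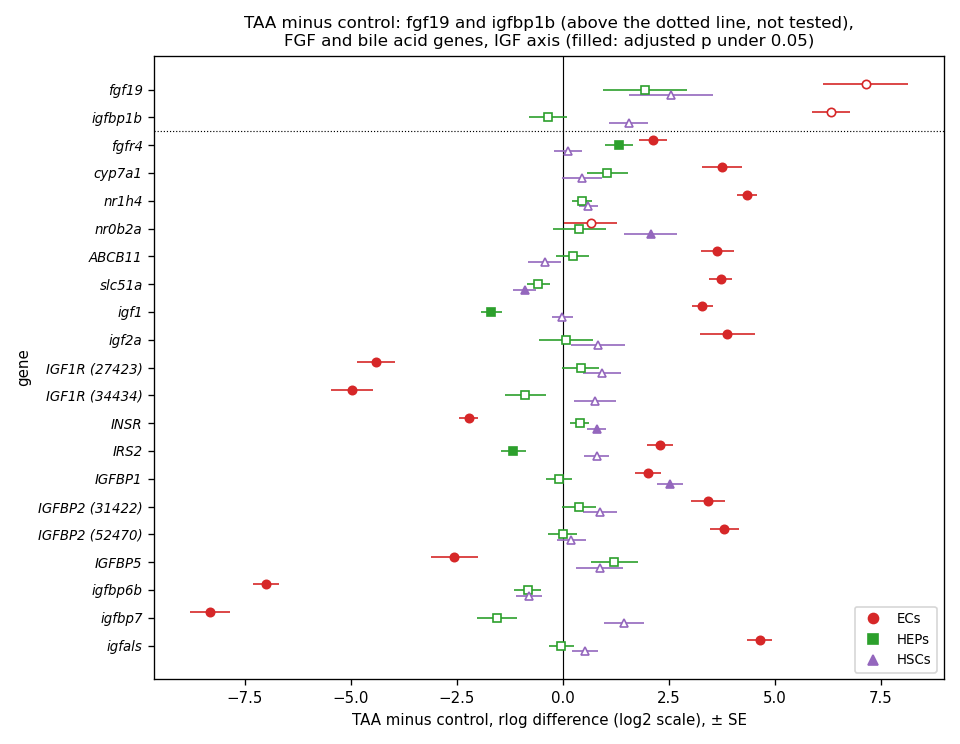
Difference between TAA and control libraries (rlog, log2 scale, ± SE) in ECs, HEPs and HSCs for fgf19 and igfbp1b, which were not tested. Also shown are genes of the FGF, bile acid and IGF lists, without those named beyond the rule given under processing. Filled symbols passed the adjusted threshold of 0.05. In ECs the circles of fgf19 (7.14) and igfbp1b (6.32) lie to the right of all listed genes, and igfbp7 (-8.31) lies farthest to the left.

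The stress, fasting and hypoxia lists, which stand for conditions under which IGFBP1 is known to rise, moved in both directions in the EC-labelled TAA libraries. So did all genes, with 19.7% called higher and 31.5% lower. Of 27 genes of the integrated stress response 5 rose and 8 fell, close to these shares. nupr1b, a stress-induced chromatin regulator, rose by 5.57, atf3 by 3.10, atf5b by 2.89 and atf5a by 2.05. The last did not pass without control replicate 1 (adjusted p = 0.052). atf4a, the central factor of this response, differed by -0.24 and did not pass (adjusted p = 0.398). Its targets asns, an asparagine synthetase, and trib3, a pseudokinase, rose by 1.23 and fell by 2.98. ddit4 and the amino acid transporter subunits slc3a2a and slc3a2b fell by 5.92, 5.48 and 6.04, and ddit3 differed by -0.49 (adjusted p = 0.048), or by 0.085 after median centring. On a further list, of 20 endoplasmic reticulum chaperones and sensors, 8 rose and 0 fell.

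Among 22 genes of the list of fasting and FOXO targets, which also holds FOXO genes themselves, 12 rose and 3 fell. Over all genes the shares were 19.7% and 31.5%. The gluconeogenic genes g6pc1a.1, G6PC1 (ENSDARG00000013721), pck2 and pck1 rose by 4.58, 3.99, 3.998 and 3.47, and tat, a tyrosine aminotransferase of hepatocytes, by 4.84. Of a pair of genes named FOXO1, ENSDARG00000061549 fell by 4.89, from a mean of 6.50 to 1.61, and ENSDARG00000099555 was at 8.57 and 8.09, a difference that did not pass (adjusted p = 0.253). Of 24 genes of the hypoxia list, which holds hypoxia factors such as hif1aa beside targets, 5 rose and 14 fell. VEGFA (ENSDARG00000034700) rose by 3.47 and egln3, an oxygen sensor, by 2.31. The hexokinase genes hk1 and hk2 had differences of -5.93 and -5.36, hif1aa one of -4.98 and the aldolase gene ALDOC one of -4.82, and all passed.

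In dsRed-positive HEPs, where igfbp1b and fgf19 overlapped between treatments, limma called 2.13% of all genes higher and 5.27% lower after TAA. Of the 137 pathway genes 3 were higher and 24 lower, or 7 and 23 after quantile normalization. Markers of other cells fell in the same comparison, 11 of 14 for leukocytes (median of the list -1.95) and 7 of 13 for exocrine pancreas (median -3.02), and their part in these counts was not tested. fgfr4 rose by 1.32 (adjusted p = 0.019), a call that was lost without either of control replicates 1 and 2 or TAA replicates 1 and 2 (adjusted p = 0.057 to 0.114). igf1, at 9.17, 8.86 and 8.53 in the controls and 7.68, 6.73 and 7.06 after TAA, fell by 1.69 (SE 0.25, adjusted p = 3.54e-04). Of 10 IGF-binding proteins and regulators 0 passed in limma, with 3 at an unadjusted p under 0.05. In the stress response list 0 rose and 7 fell, among them atf3 by 2.16, ddit3 by 1.49 and trib3 by 1.84, and in the fasting list 6 fell, among them pck1 by 2.80. cyp7a1 differed by 1.05 and did not pass (adjusted p = 0.202), or passed at 1.67 without TAA replicate 1 (adjusted p = 0.038).

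In HSC-labelled libraries, where the means of fgf19 and igfbp1b were higher after TAA by 2.55 and 1.55, limma called 4.26% of all genes higher and 3.94% lower. Of the pathway genes 14 were higher and 14 lower. Here too 10 of 14 leukocyte markers fell (median of the list -1.54) and 6 of 13 exocrine pancreas markers (median -2.54), while 7 of 17 stellate markers rose (median 1.16), and their part was not tested. IGFBP1 rose by 2.53 (SE 0.31, adjusted p = 6.81e-05), from 7.96, 8.09 and 8.67 to 10.52, 10.84 and 10.94, and it was the only 1 of 10 binding proteins and regulators to pass. In the bile acid list 4 rose and 1 fell. nr0b2a was at 1.22, 0.97 and 0.44 in the controls and at 2.90, 3.08 and 2.86 after TAA (2.07 higher, adjusted p = 0.045). Leaving out any of these 6 libraries ended that call (adjusted p = 0.052 to 0.131). Its copy nr0b2b rose by 2.83, and fabp6, a bile acid-binding protein of the intestine, by 1.62. The mean of fabp6 was -1.01 in the controls and 0.61 after TAA. These are low levels, as the lowest value of any gene was -2.62. cyp7a1 differed by 0.44 (adjusted p = 0.593). nupr1b rose by 1.93, pck1 fell by 2.04, and 8 of 20 endoplasmic reticulum genes fell while 0 rose. Without any 1 of the 3 TAA libraries the number of pathway genes that passed was 17 or 18 in place of 28.

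Whether the TAA response of a listed gene differed between lines was tested as an interaction. Between ECs and HEPs 16.0% of all genes had a higher and 24.9% a lower difference in the EC-labelled comparison, and of the 137 pathway genes 46 and 24. Median centring turned the balance of all genes to 4237 higher and 2812 lower, with 64 and 21 pathway genes. Between ECs and HSCs the shares were 17.1% and 26.0%, with 45 and 35 pathway genes, and after centring the balance of all genes was again turned, to 4915 and 2932, with 58 and 23 pathway genes. Between HEPs and HSCs they were 0.709% and 2.15%, with 1 and 17. IGFBP1, the copy of igfbp1b, had a response lower by 2.63 in HEPs than in HSCs (SE 0.43, adjusted p = 0.002), while its responses in ECs and HSCs differed by -0.52 (SE 0.43, adjusted p = 0.356). The TAA difference of igf1 was larger by 4.98 in the EC-labelled comparison than in HEPs, with opposite signs in these lines.

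In control cells alone, ECs had lower igfbp1b than HEPs (by 4.99) and HSC-labelled cells (by 2.79) with no overlap of the libraries. They had fgf19 lower by 2.52 and 3.15 with overlap in both cases. Against control HEPs, libraries also did not overlap for 18 of 22 genes of the fasting list and 12 of 27 of the stress list. Against HSC-labelled controls no such count was made. Across all genes, 30.2% were higher and 19.8% lower in control ECs when set against control HEPs and HSCs together. Of the pathway genes 36 were higher and 55 lower there. All 20 hepatocyte markers were lower in this comparison (median -3.53). All 21 endothelial markers (median 6.07) and 12 of 14 leukocyte markers (median 2.65) were higher. The part of these markers in the differences of both genes and in the counts was not tested. After median centring the balance of all genes turned, with 3580 higher and 5451 lower, and that of the pathway genes was 24 and 67.

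Finally, the pathway genes were compared between the EC-labelled and the HEP TAA libraries, a comparison added once the marker levels were known. Over all genes 1.23% were higher and 2.8% lower in the EC-labelled libraries. Of 137 pathway genes 8 were higher and 2 lower, with a median difference of 0.088 against -0.048 over all genes. None of 5 FGF receptors, 15 bile acid genes, 13 IGF ligand and receptor genes or 22 genes of the fasting list passed in limma. In the same order, 2, 0, 2 and 6 had an unadjusted p under 0.05. Those that were higher were atf3 (by 2.46), ddit3 (by 1.14) and atf5b (by 1.3) of the stress response, hsp90b1, DNAJB9, dnajc3a and calr3a of the endoplasmic reticulum, and ADM, the hypoxia-induced adrenomedullin, by 2.48. IGFBP5 and slc3a2a were lower, with differences of -2.99 and -2.07. For comparison, fgf19 and igfbp1b differed by 2.69 and 1.69 between the same libraries.

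The genes whose levels over all 27 libraries were most like each member were found by Pearson's coefficient, as a description over libraries that share lines and treatments. For fgf19 they were gstt1b (r = 0.91), a glutathione transferase, c9 (0.89), a terminal complement component, TMBIM6 (0.89), sepp1b (0.88), a selenoprotein, and ces2b (0.87), a carboxylesterase. For igfbp1b they were kl (0.90), whose mammalian product Klotho is a partner of FGF receptors, sult2st2 (0.90), a sulfotransferase, cbln17 (0.90), syngr2b (0.89) and SLC25A34 (0.88). The coefficient between fgf19 and igfbp1b was 0.70, and 815 genes had a higher one with fgf19 and 796 with igfbp1b. Over the 12 reporter-positive EC and HEP libraries the leading genes were others, selenoj, fam210b, zgc:101744, SLC35A3 and ms4a17a.17 for fgf19 (r = 0.95 to 0.96) and ENSDARG00000077872, ENSDARG00000097504, serpina1l, GAMT and a2ml for igfbp1b (0.99 each). Like igfbp1b, kl was low in control ECs (mean 2.39) and high in the EC-labelled TAA libraries (6.96), but its mean was higher still in TAA HEPs (7.34).

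The genes next to each member in the RefSeq gene order of assembly GRCz12tu, as far as they could be matched by symbol, were read after the values of the members were known. Beside fgf19, none of zgc:153993, fadd and lto1 passed in any of the 3 TAA comparisons, and their differences in ECs were -0.93, -0.26 and -0.46. ccnd1, which encodes cyclin D1 and lies beyond lto1, differed by -0.61 in ECs, 0.81 in HEPs and -0.80 in HSCs, each close to the threshold (adjusted p = 0.043, 0.045 and 0.047) and past it no longer without a variance trend (0.076, 0.088 and 0.089). Beside igfbp1b, znfl2a and fggy, a carbohydrate kinase gene, rose by 2.35 and 2.74 in the EC-labelled TAA libraries (adjusted p = 4.51e-04 and 4.95e-07) and did not pass in HEPs or HSCs. The mean of fggy was 3.17 in control ECs, 5.91 in the EC-labelled TAA libraries and 5.55 in TAA HEPs, and that of znfl2a was 0.41, 2.76 and -0.48. In mCherry-negative control cells of the same line the means were 5.21 for fggy and 2.04 for znfl2a. The part of the line in the differences of both was not tested. Between the EC-labelled and the HEP TAA libraries znfl2a was higher by 3.24 (adjusted p = 4.23e-04), and fggy by 0.36, which did not pass (adjusted p = 0.777). phlpp1, on the other side of igfbp1b, differed by -0.55 in ECs (adjusted p = 0.051).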

How the data were processed

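RNA from 100000 sorted liver cells a library was depleted of ribosomal RNA and sequenced. Per the methods, the authors used FastQC 0.11.8, cutadapt 1.18 and rRNAdust on the reads, mapped what was left with STAR 2.6 to GRCz11, and filtered with SAMtools 1.9. What was deposited is 1 table of rlog (log2) levels from DESeq2, with 18336 genes and 27 libraries. Read counts cannot be recovered from it, and the shrinkage understates differences of genes with few reads. The counting tool and annotation release are not given in the sources used here.

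Groups and replicate numbers came from the sample titles. No filter or further scaling was applied. Listed genes were compared with limma 3.58.1 in R 4.3.3 (lmFit on group means, contrasts.fit, eBayes with trend=TRUE), with Benjamini-Hochberg adjustment across the 18336 genes, and a gene passed, rose or fell at an adjusted p under 0.05. TAA, interaction and TAA EC against TAA HEP contrasts used the 18 reporter-positive libraries, and the control contrast the 9 control ones. The fit was tested on simulated data first. Tables and plots were made with Python 3.11.15, numpy 2.4.6, pandas 2.3.3 and matplotlib 3.10.9.

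fgf19 and igfbp1b, the pathway lists and the marker lists were chosen with earlier results of these data known, and both genes are described without a test. The genes named from the lists were those that passed in ECs with an absolute difference of at least 2, up to 4 per list and direction by size, plus fgfr4, cyp7a1, nr0b2a, igf1, the remaining igfbp1 copy, an igfbp2 copy, atf4a, ddit3, trib3, asns and pck1 whatever they showed. Single genes named beyond this were chosen after their values were seen. Symbols came from a supplementary table of the study and from a gene name table, which often gives names without a copy letter (IGFBP1, IGF1R). Of 167 listed symbols, 137 genes could be matched, and klb and fgf21 are not analysed here. No source ties libraries to fish, and fewer saline-injected fish are stated than reporter-positive control libraries. The p-values thus measure the spread between these libraries, which may be technical. Alternatives were other scalings, fits, filters and thresholds, a replicate block, and leaving out each library in turn.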

Additional observations from a re-analysis of the deposited data

Results flagged for a closer look

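The TAA responses of the pathway genes differed between lines by the interaction test in limma. The number past the adjusted threshold was 70 of 137 between ECs and HEPs, 80 between ECs and HSCs and 18 between HEPs and HSCs. Over all genes 16.0% passed as higher and 24.9% as lower in the first comparison, 17.1% and 26.0% in the second, and 0.709% and 2.15% in the last. Against HEPs, the EC response was higher for 20 of 20 hepatocyte markers (median 4.19) and lower for 20 of 21 endothelial markers (median -6.51). Against HSCs these counts were 19 of 20 (median 4.13) and 21 of 21 (median -6.90). The part of these markers in the counts, and in the differences of single genes below, was not tested. For the named genes, the widest of the 3 differences that passed is given below as the EC response minus that of the other line, unless said otherwise. As above, the response in ECs is the difference between the EC-labelled TAA libraries and control ECs.

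Of the FGF and bile acid genes, fgfr4 responded more in ECs than in HSCs by 2.00, cyp7a1 by 3.30, ABCB11 by 4.07 and slc51a by 4.62, and nr1h4 more than in HEPs by 3.896. Of the IGF axis, the response in ECs exceeded that in HEPs by 4.98 for igf1, 3.81 for igf2a, 3.46 for IRS2 (ENSDARG00000037099), 4.68 for igfals, and 3.04 and 3.80 for the IGFBP2 genes. It was below that in HSCs for the IGF1R genes (-5.33 and -5.73), INSR (ENSDARG00000011948, -3.02), igfbp6b (-6.20) and igfbp7 (-9.75), and below that in HEPs for IGFBP5 (-3.78). For IGFBP1 the HEP response was below the HSC response (-2.63).

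Of the stress genes, atf3 (5.25), atf5a (2.54), atf5b (2.81) and nupr1b (5.65) exceeded their response in HEPs, and asns (2.12) its response in HSCs. trib3 (-2.80), ddit4 (-4.90), slc3a2a (-3.96) and slc3a2b (-3.92) were below that in HSCs, and ddit3 was lower in HEPs than in HSCs (-2.07). Of the fasting list, pck1 (6.27), g6pc1a.1 (4.25) and G6PC1 (5.34) exceeded HEPs, and pck2 (4.204) and tat (5.50) exceeded HSCs. FOXO1 (ENSDARG00000061549, -4.95) was below HEPs. Of the hypoxia list, egln3 (2.23) and VEGFA (4.34) exceeded HSCs, hif1aa (-4.54), hk1 (-3.84) and hk2 (-4.01) were below HSCs, and ALDOC (-4.19) was below HEPs.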

How the results depend on the processing

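Without each library in turn, the count of pathway genes that passed ranged from 81 to 85 in ECs (85 with all libraries), from 18 to 23 in HEPs (27), from 17 to 37 in HSCs (28), from 66 to 73, 70 to 80 and 13 to 21 for the responses that differed between ECs and HEPs (70), ECs and HSCs (80) and HEPs and HSCs (18), from 77 to 96 between the control groups (91), and from 7 to 11 between EC-labelled and HEP TAA libraries (10). After median centring the last count was 17. The differences of fgf19 ranged from 6.54 to 8.14 in ECs, 0.78 to 2.83 in HEPs, 1.24 to 3.46 in HSCs and 2.24 to 2.97 between EC-labelled and HEP TAA libraries, and those of igfbp1b from 5.90 to 6.59, -0.64 to -0.18, 0.87 to 1.98 and 1.26 to 1.96. None of these 8 differences changed sign or moved by more than the spread between replicates under median centring, quantile normalization or group medians.

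The difference of ddit3 in ECs turned to 0.085 after median centring. Spearman's coefficient kept 0 of the 5 genes most like fgf19 and 0 of those most like igfbp1b, and the 18 reporter-positive libraries kept 1 and 0, so these names depend on the measure. Of 1734 values of the named and neighbouring genes under alternatives, 1627 kept their direction and their side of the threshold, 86 no longer passed, 20 newly passed and 1 reversed. In ECs 20 of 578 differed from the result with all libraries, in HEPs 31 and in HSCs 56.

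Deviations of same-numbered TAA and control libraries had mean correlations of 0.040 in ECs, -0.012 in HEPs and 0.00063 in HSCs. For control ECs the means were -0.012 with control HEPs and 0.052 with control HSCs. Low values over all genes cannot exclude a shared fish or preparation, so whether the numbers pair libraries in the comparisons tested is not known. Same-numbered reporter-negative and reporter-positive control libraries, which no test compared, deviated together in the EC and HEP lines (mean 0.157 and 0.13), and hardly in the HSC line (0.026). With a replicate block the counts were 86 in ECs, 26 in HEPs and 27 in HSCs, 71, 81 and 18 for the differing responses, 89 between the control groups and 11 between the TAA groups. With 3 libraries a group and no read counts, the limits of a difference are set by the spread between libraries, which was widest for fgf19 in controls. The alternatives for single named and neighbouring genes and the comparison of the EC-labelled with the HEP TAA libraries were chosen after seeing the data.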
